A study of Mus musculus with 8 samples.

Results

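The MHC class II genes are the 10 gene symbols Ciita, Cd74, H2-Aa, H2-Ab1, H2-Eb1, H2-DMa, H2-DMb1, H2-DMb2, H2-Oa and H2-Ob, chosen by name and all present among the 24421 symbols of the deposited count files. They were read in RNA-seq libraries of c-KIT High sorted mouse bone marrow leukemia cells of strain C57BL/6. The Ikzf2 KO group came from Ikzf2Δ/Δ mice (2 libraries) and the Ikzf2 WT group from Ikzf2f/f mice (2 libraries). All 4 libraries share transformation by MLL-AF9, a leukemic fusion oncogene, and all were sorted from thawed frozen marrow. What deleted Ikzf2, and whether each library came from a separate animal, is not given in the sources used here. The p-values therefore measure only the spread between these libraries, which in WT may be technical. The KO libraries differ in sex-linked genes, as given below, so their spread is not technical alone. The 4 chromatin accessibility samples of the series were not analysed here. The comparison asks whether loss of Ikzf2, which encodes the Ikaros family zinc finger factor Helios, alters the differentiation program of these cells.

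MHC class II molecules present peptides from the endocytic pathway to CD4+ T cells and are made mainly by dendritic cells, B cells and activated macrophages. CIITA, the co-activator encoded by Ciita, does not bind DNA itself but is recruited to a conserved promoter module, in which the RFX complex holds the X box and NF-Y the Y box. The invariant chain, encoded by Cd74, guards the new α and β chains on their way to the endosome, H2-DM then exchanges its remnant for peptide, and H2-O restrains H2-DM.

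Gene counts came to 16006081 and 18017545 in KO replicates 1 and 2, and to 19286090 and 18711837 in WT replicates 1 and 2. At these depths 3 counts equal 0.186 and 0.176 CPM, counts scaled by the library's total after TMM adjustment, in the KO libraries and 0.150 and 0.159 CPM in the WT libraries. Ikzf2 stood at 10.9 and 26.5 CPM in the KO libraries and at 283 and 271 CPM in the WT libraries and was thus lower in both libraries labelled KO. Kit, the sorted receptor, had 236 and 376 CPM in KO and 216 and 330 CPM in WT. KO replicate 1 stood apart in its sex-linked genes, with 833 CPM of Xist, where KO replicate 2 had 0.352 CPM and the WT libraries 0.600 and 0.477 CPM, and with 1 count of Ddx3y, against 1194 counts in KO replicate 2 and 2190 and 1931 counts in WT. Results are therefore also given without it.

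Of the class II genes, 8 lie in a stretch of 224 kb on chromosome 17 (GRCm38.p6, the assembly named mm10; 34092379 to 34316674). RefSeq promoter windows of 300 bases, 250 of them before an annotated start, were at hand for 7 members, H2-DMa with 2 windows. For H2-DMb2 and H2-DMa that start is not the first base of the gene. Their windows begin at 34144999 (H2-DMb2) and at 34122582 and 34125268 (H2-DMa), inside genes that begin at 34143229 and 34119693. The X-like letters CNNNNAAC, followed after a gap of 20 to 30 bases by the Y-like letters TGATTGG, were found in the windows of 6 of these 7 members on the strand of the gene. Either strand of 0.277% of all 32851 windows in the RefSeq table holds the pair, and 7.82% hold the Y-like letters alone. The letters and the gap were chosen after these promoters had been seen, so the match describes them and is not a site. The 6 stretches are shown because these members share the letters, while their RNA levels, given further on, did not all move together. The X-like and Y-like letters are in capitals, and each stretch runs 5′ to 3′ on the strand of its gene.
H2-Aa (chr17:34287855-34287919, minus strand): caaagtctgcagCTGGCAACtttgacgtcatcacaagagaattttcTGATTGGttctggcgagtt
H2-Eb1 (chr17:34305761-34305824, plus strand): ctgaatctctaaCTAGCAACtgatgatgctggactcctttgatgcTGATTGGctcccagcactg
H2-DMb1 (chr17:34153082-34153146, plus strand): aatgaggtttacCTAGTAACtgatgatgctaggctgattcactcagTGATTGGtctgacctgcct
H2-DMb2 (chr17:34145111-34145175, plus strand): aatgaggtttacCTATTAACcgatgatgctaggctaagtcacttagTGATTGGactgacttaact
H2-Oa (chr17:34092288-34092352, plus strand): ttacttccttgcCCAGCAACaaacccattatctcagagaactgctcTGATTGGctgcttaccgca
H2-Ob (chr17:34238803-34238864, plus strand): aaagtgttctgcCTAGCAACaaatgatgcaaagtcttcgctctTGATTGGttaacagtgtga

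The gap was 26 bases in H2-Aa, H2-DMb1, H2-DMb2 and H2-Oa, 25 in H2-Eb1 and 23 in H2-Ob. H2-Oa held 2 pairs, and the one whose X-like letters lie farthest upstream is shown. The Y-like letters began between 45 bases (H2-Oa) and 92 bases (H2-DMb2) before the annotated start of the window. For H2-DMb2 that start lies inside the gene. The stretches of H2-DMb1 and H2-DMb2 share the run before the X-like letters and differ within them. Neither window of H2-DMa holds the pair, which says only that these letters are not in those windows. The bases before the first base of H2-DMa were not searched.

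Ciita, the master co-activator, stood above both WT libraries in each KO library, by far the most in KO replicate 1. The same held for Cd74, the invariant chain gene, for the α chain gene H2-Aa and for the β chain gene H2-Eb1. The genes for H2-DMa and H2-DMb1, which load peptide, and for H2-Oa and H2-Ob, which restrain loading, had values that overlapped between the genotypes. H2-Ab1, the partner of H2-Aa in the mature molecule, was high in KO replicate 1 only. In all, 5 of the 10 genes had TMM-normalised CPM above the WT range in both KO libraries, and 0 had it below, where 18.1% of the 12623 genes tested were higher in both and 19.1% were lower in both. The median log2 fold change of the 10 was 2.08, and that of all genes tested was -0.0043. Without KO replicate 1 the median of the 10 was 0.41.

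The test of all genes by edgeR's quasi-likelihood method with Benjamini-Hochberg adjustment called 0 of the 10 class II genes and 0% of the 12623 genes at an adjusted p of 0.05. At an unadjusted p under 0.05 it had 5 of the 10 and 968 of all genes, and voom in limma also called 0. DESeq2 called 4 of the 10, Ciita, Cd74, H2-Aa and H2-Eb1, all as higher, against 1.56% of its 13422 genes with an adjusted p called as higher and 1.07% called as lower. "Rose" and "fell" below refer to these DESeq2 calls. Leaving out a library, DESeq2 called 1 of the 10 (WT replicate 1 left out), 2 (WT replicate 2), 2 (KO replicate 1) and 5 (KO replicate 2).

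**Figure D1:**
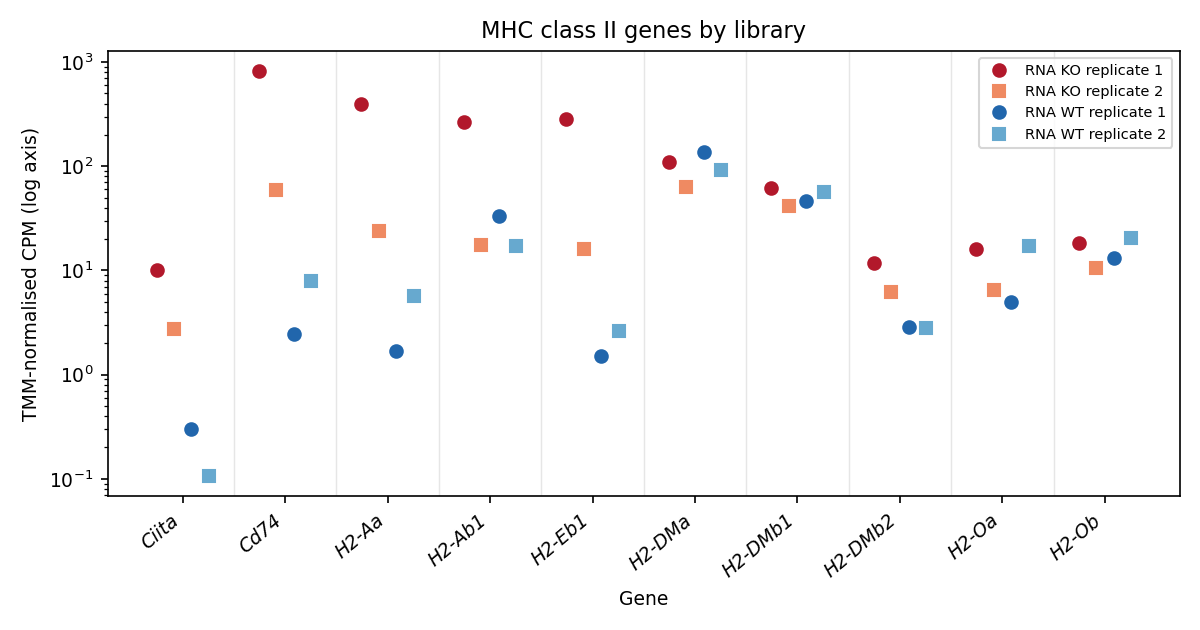
TMM-normalised CPM (log axis) of the 10 class II genes in each of the 4 libraries, 1 point per library. Ciita, Cd74, H2-Aa, H2-Eb1 and H2-DMb2 have both KO points above both WT points, and KO replicate 1 is the highest library for 7 of the 10 genes (30.4% of all genes tested).

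Ciita (chromosome 16, 10480014 to 10531064) had 10.02 and 2.76 CPM in KO replicates 1 and 2, against 0.300 and 0.106 CPM in WT replicates 1 and 2. The raw counts were 162 and 47 in KO and 6 and 2 in WT. The groups did not overlap, and the WT level lay close to the depth limit. With so few WT counts the size of the ratio is loose: KO replicate 1 stood 33.4 times above WT replicate 1 (95% exact counting interval 15.0 to 92.3) and 94.5 times above WT replicate 2 (25.7 to 787). KO replicate 2 stood 9.19 times (3.92 to 26.3) and 26.0 times (6.81 to 221) above the same WT libraries. These intervals cover counting error only. Ciita rose by DESeq2 (log2 fold change 4.97, SE 1.05, adjusted p = 4.07e-04), with an edgeR log2 fold change of 4.92 (SE 1.02, adjusted p = 0.444). Of the 4 DESeq2 fits that leave out a library 3 called it, but not the fit without KO replicate 1 (log2 fold change 3.77, adjusted p = 0.631). The gene overlaps Dexi, which did not move with it, at 7.86 and 4.58 CPM in KO and 10.4 and 6.31 CPM in WT.

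Cd74 (chromosome 18, 60803849 to 60812652), the invariant chain gene, had 821 and 58.6 CPM in the KO libraries and 2.45 and 7.96 CPM in the WT libraries. KO replicate 1 was 14.0 times above KO replicate 2 (95% counting interval 13.1 to 14.9), and even the lower KO library was 7.37 times above the higher WT library (6.20 to 8.81). Cd74 rose by DESeq2 (log2 fold change 6.40, SE 1.61, adjusted p = 0.00628), with an edgeR adjusted p of 0.444 (log2 fold change 6.40, SE 1.53). Without KO replicate 1 the DESeq2 log2 fold change was 3.51 and the call held. That fit assumed the lone KO library to vary like the WT libraries, and edgeR did not call Cd74 there (log2 fold change 3.50). The DESeq2 call was lost without WT replicate 1 (log2 fold change 5.79).

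H2-Aa, which encodes the α chain of I-A, the one complete class II surface molecule of C57BL/6 mice, had 397 and 23.7 CPM in KO and 1.70 and 5.62 CPM in WT. H2-Eb1, the β chain of I-E, had 282 and 15.9 CPM in KO and 1.50 and 2.60 CPM in WT. In both genes the order was KO replicate 1, then KO replicate 2, then the WT libraries, with no overlap between genotypes. H2-Aa rose by DESeq2 (log2 fold change 5.84, SE 1.68, adjusted p = 0.0257), and so did H2-Eb1 (6.19, SE 1.60, adjusted p = 0.00898), with edgeR adjusted p-values of 0.463 and 0.450. Without KO replicate 1 the DESeq2 log2 fold changes were 2.71 for H2-Aa, which lost its call, and 2.97 for H2-Eb1, which kept it. EdgeR called neither gene there. H2-Aa kept its DESeq2 call only without KO replicate 2 (log2 fold change 6.76). In the fits without a KO library the lone KO library was assumed to vary like the WT libraries. H2-Eb1 lost its call without WT replicate 1 and without WT replicate 2 (log2 fold changes 5.84 and 6.63). H2-Ea-ps, the locus of the missing I-E α chain in this strain, had 0 counts in all 4 libraries.

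H2-Ab1, the β chain of I-A, went its own way. It had 268 and 17.7 CPM in the KO libraries and 33.6 and 17.3 CPM in the WT libraries. KO replicate 2 was 1.02 times WT replicate 2 (95% counting interval 0.871 to 1.20) and 0.526 times WT replicate 1 (0.457 to 0.603), so only KO replicate 1 lay above WT. It passed neither test (edgeR log2 fold change 2.49, SE 1.22, adjusted p = 0.754; DESeq2 adjusted p = 0.746), and the edgeR log2 fold change was -0.52 without KO replicate 1. Without KO replicate 2 DESeq2 called it (log2 fold change 3.40), again with the lone KO library assumed to vary like the WT libraries. The class II gene H2-Eb2, which is no member of the 10, was highest in WT replicate 1, with 28 and 6 counts in KO and 169 and 23 counts in WT (edgeR log2 fold change -2.21, SE 1.21, adjusted p = 0.781).

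**Figure D2:**
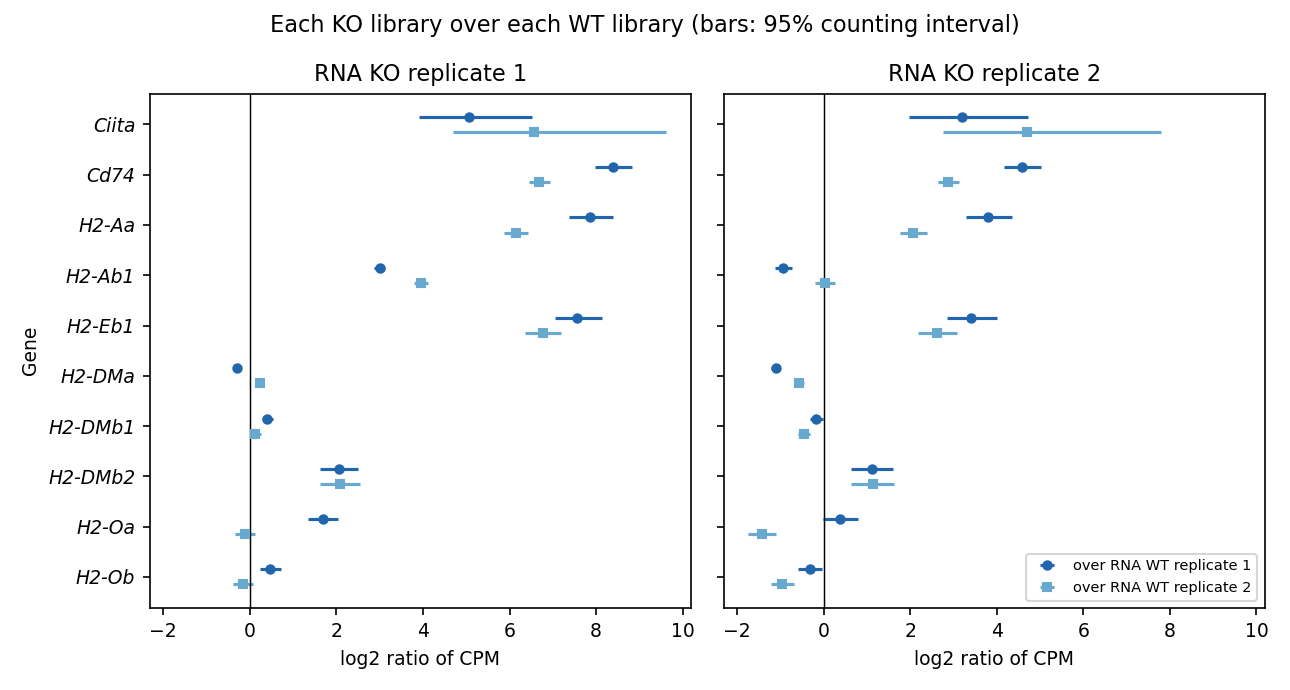
Log2 ratio of CPM of each KO library over each WT library for the 10 genes, with 95% exact counting intervals as bars. For Ciita, Cd74, H2-Aa, H2-Eb1 and H2-DMb2 all 4 ratios lie above 0 with their intervals, while KO replicate 2 lies at or below 0 for H2-Ab1, H2-DMa, H2-DMb1 and H2-Ob.

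The H2-DM genes encode the editor that swaps the invariant chain remnant for peptide. H2-DMa had 110 and 63.0 CPM in KO and 136 and 92.9 CPM in WT (edgeR log2 fold change -0.41, SE 0.35, adjusted p = 0.888). H2-DMb1 had 61.2 and 41.4 CPM in KO and 46.4 and 56.3 CPM in WT, with an edgeR log2 fold change of -0.0018 (SE 0.28), which turned to 0.0071 by DESeq2. Both genes were thus well expressed in every library and overlapped between genotypes. H2-DMb2, a second β chain gene, had 11.8 and 6.16 CPM in KO and 2.85 and 2.81 CPM in WT. Its groups did not overlap, but it passed neither edgeR (log2 fold change 1.66, SE 0.54, adjusted p = 0.554) nor DESeq2 (adjusted p = 0.115). H2-DMb1 and H2-DMb2 are related copies, so reads may be shared or lost between them and both counts are uncertain. H2-DMa overlaps Brd2, which was highest in KO replicate 2 (658 CPM), where H2-DMa was lowest.

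H2-Oa and H2-Ob encode the 2 chains of H2-O, the H2-DM inhibitor, known for its presence in B cells. H2-Oa had 16.0 and 6.46 CPM in KO and 4.95 and 17.2 CPM in WT. H2-Ob had 18.4 and 10.6 CPM in KO and 13.3 and 20.5 CPM in WT. In both genes WT replicate 2 was the highest library and KO replicate 1 the next, so the spread within each genotype was larger than the difference between them. Their edgeR log2 fold changes were 0.015 (SE 0.75) and -0.22 (SE 0.43), with adjusted p-values of 0.9997 and 0.967, and that of H2-Oa was -0.018 with library sizes alone as scaling. H2-Oa overlaps BC051537, which had 92 and 43 counts in KO and 40 and 133 in WT, in the same order over the libraries as H2-Oa. Without a stated strand setting reads of the pair cannot be told apart.

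The members were then set against each other within a library, in sums by role that hold genes of unlike pattern (H2-Ab1 among the presenting genes, H2-DMb2 among the H2-DM genes). The presenting set is a name for H2-Aa, H2-Ab1, H2-Eb1 and Cd74, although Cd74 encodes the invariant chain and I-E is incomplete in this strain. Its summed CPM was 1767 and 116 in KO (mean 942 ± 1168, SD, n = 2) and 39.3 and 33.5 in WT (36.4 ± 4.09). That of H2-DMa, H2-DMb1 and H2-DMb2 was 183 and 111 in KO and 185 and 152 in WT, and that of H2-Oa and H2-Ob was 34.4 and 17.1 in KO and 18.2 and 37.8 in WT. The presenting set therefore held 9.67 and 1.05 counts for each H2-DM count in KO, and 0.212 and 0.220 in WT. On the log2 scale this ratio was 3.88 higher in KO than in WT, with no overlap (2-sided exact permutation p = 0.333, the smallest that 2 against 2 libraries allow). Without KO replicate 1 the difference was 2.28. The log2 ratio of the presenting set to the H2-O genes was 3.76 higher in KO than in WT (2-sided exact permutation p = 0.333), and 2.296 higher without KO replicate 1.

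H2-Aa and H2-Eb1 kept close to each other over the whole range. The count of H2-Eb1 was 0.711 and 0.671 times that of H2-Aa in KO and 0.882 and 0.462 times in WT, although the H2-Aa level itself spanned 1.70 to 397 CPM. The ratio of H2-Ab1 to H2-Aa, 2 chains of 1 molecule, did not keep in this way. It was 0.677 and 0.745 in KO and 19.8 and 3.08 in WT, a log2 difference of -3.46 between the genotypes, and -3.39 without KO replicate 1 (2-sided exact permutation p = 0.333 over all 4 libraries). This pair was chosen after its values were seen. The ratio of H2-DMb2 to H2-DMb1 counts was 0.193 and 0.149 in KO and 0.0614 and 0.0499 in WT, without overlap.

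**Figure D3:**
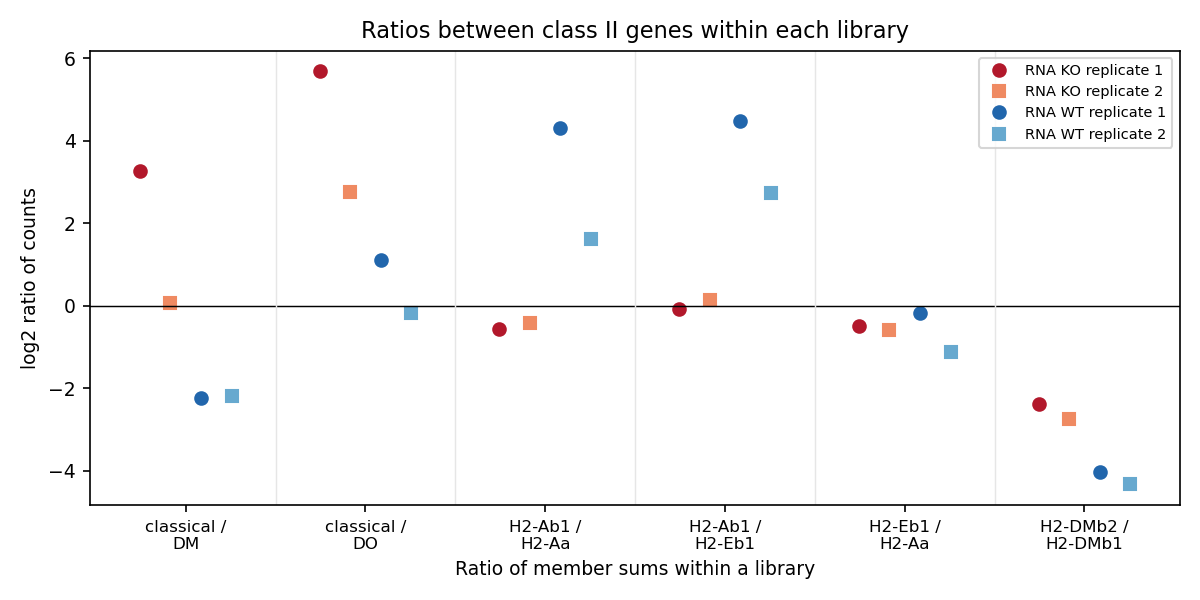
Log2 ratio of counts between class II genes within each library, 1 point per library; classical stands for H2-Aa, H2-Ab1, H2-Eb1 and Cd74 summed, DM for the 3 H2-DM genes and DO for H2-Oa and H2-Ob. Both KO points lie above both WT points for classical over DM and DO, below them for H2-Ab1 over H2-Aa and over H2-Eb1, and among them for H2-Eb1 over H2-Aa.

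The KO libraries also differed from each other. All 10 genes were higher in KO replicate 1 than in KO replicate 2, with ratios from 1.48 (H2-DMb1) to 17.7 (H2-Eb1), and the counting interval of each lay above 1. KO replicate 1 was at least 4-fold above each of the other 3 libraries, on CPM plus 0.5, in 4 of the 10 genes, Cd74, H2-Aa, H2-Ab1 and H2-Eb1, against 0.364% of all genes tested (46 genes). Set against WT replicate 1, KO replicate 2 was higher beyond counting error in 5 of the 10 genes and lower in 4, and against WT replicate 2 it was likewise higher in 5 and lower in 4. These intervals cover counting error only, and how many of all genes lie outside them was not counted. The counts of members by interval are therefore not shown to be particular to class II genes. In bulk RNA a change in the number of cells that express a gene and a change in RNA per cell cannot be told apart.

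Between H2-Oa and H2-Eb1 lie 5 other genes of the files, Brd2, Psmb9, Tap1, Psmb8 and Tap2, of which the last 4 serve MHC class I peptide supply. None of the 5 was higher in both KO libraries, and 4 were lower in both (19.1% of all genes tested). Tap2, a subunit of the peptide transporter into the endoplasmic reticulum, fell by DESeq2, with 184 and 256 CPM in KO and 539 and 431 CPM in WT (edgeR log2 fold change -1.14, SE 0.27, DESeq2 adjusted p = 0.0190). Psmb8, an immunoproteasome subunit, fell to 165 and 152 CPM in KO, against 298 and 264 CPM in WT (DESeq2 adjusted p = 0.0387). Genes of this stretch thus lay on opposite sides of their WT levels. Of the 9 class I genes listed, these 2 fell and 0 rose by DESeq2 (1.07% and 1.56% of its genes with an adjusted p), and 0 passed edgeR. The list was mixed: 3 of the 9 were higher in both KO libraries (18.1% of all genes tested) and 4 lower in both (19.1%). The median log2 fold change of the 9 was 0.052. The 3 were H2-K1, Nlrc5 and B2m, the last with 789 and 411 CPM in KO and 364 and 401 CPM in WT.

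**Figure D4:**
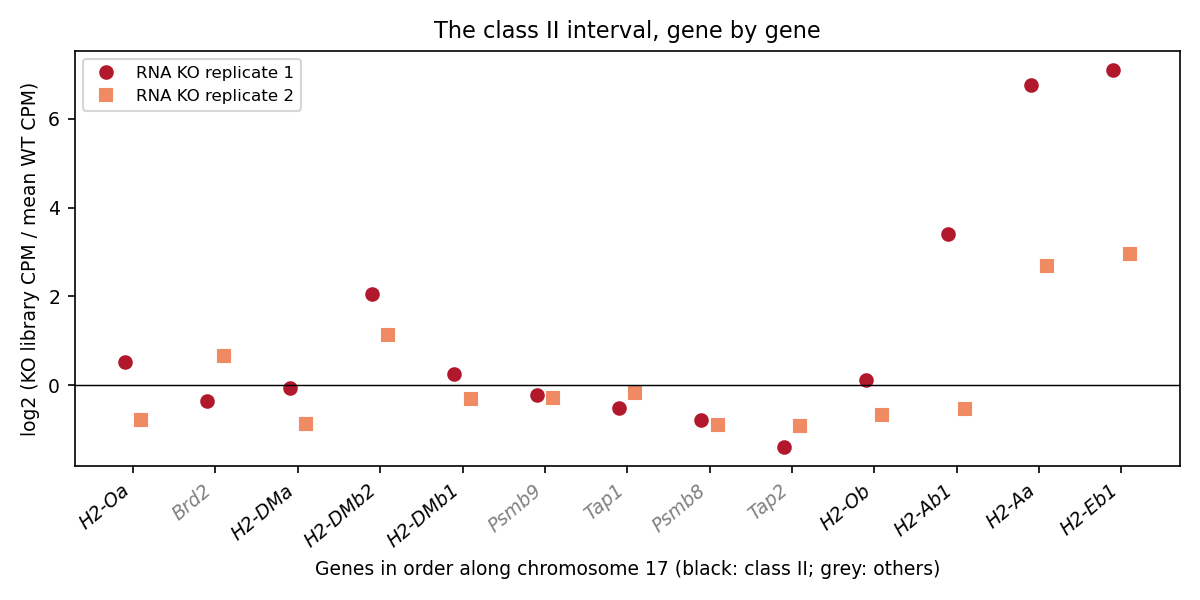
Log2 of each KO library's CPM over the mean WT CPM for the 13 genes of the class II interval, in their order along chromosome 17; class II genes are named in black and others in grey. H2-Aa and H2-Eb1 are high in both KO libraries, H2-Ab1 in KO replicate 1 only, and Psmb9, Tap1, Psmb8 and Tap2 lie below 0 in both.

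The factors that hold the class II promoter and the route that induces Ciita showed no call. Of 7 promoter factors (the RFX subunits Rfx5, Rfxap and Rfxank, the NF-Y subunits Nfya, Nfyb and Nfyc, and Creb1) 0 passed edgeR or DESeq2. Of the 7, 3 were higher in both KO libraries (18.1% of all genes tested), and the median log2 fold change was 0.17. Rfx5 had 33.7 and 41.0 CPM in KO and 38.0 and 51.7 CPM in WT. Creb1 had 114 and 141 CPM in KO and 118 and 109 CPM in WT, and Nfya 105 and 122 CPM in KO and 92.9 and 88.5 CPM in WT. Of 8 genes of the interferon-γ route, which induces Ciita in many cell types, 0 passed either test, with a median of 0.043. Of the 8, 2 were higher in both KO libraries (18.1% of all genes tested) and 0 lower in both (19.1%). These 2 were Irf2, with 73.6 and 56.5 CPM in KO and 41.2 and 49.7 CPM in WT, and Socs1, with 6.00 and 4.46 CPM in KO and 3.70 and 3.61 CPM in WT. The receptor gene Ifngr1 had 673 and 594 CPM in KO and 774 and 518 CPM in WT, and the kinase gene Jak1 199 and 296 CPM in KO and 214 and 284 CPM in WT.

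Of 9 measured genes of endosomal processing and class II turnover 1 rose and 0 fell by DESeq2 (1.56% and 1.07% of its genes with an adjusted p). The median log2 fold change of the 9 was 0.34, and 0 passed edgeR. The riser was March1, a ubiquitin ligase that removes class II molecules from the surface, with 18.3 and 25.2 CPM in KO and 1.85 and 6.90 CPM in WT (edgeR log2 fold change 2.31, SE 0.68, DESeq2 adjusted p = 0.0282). Unlike the presenting set it was higher in KO replicate 2 than in KO replicate 1. Ctss, the protease that trims the invariant chain, had 93.4 and 38.6 CPM in KO and 10.5 and 25.2 CPM in WT and missed the threshold (DESeq2 adjusted p = 0.0507). Ifi30, the endosomal thiol reductase gene, had 77.8 and 52.6 CPM in KO and 72.7 and 56.7 CPM in WT. Of 7 costimulation genes 1 rose by DESeq2 (1.56% of its genes with an adjusted p). This was Cd83, with 89 and 7 counts in KO and 2 and 0 in WT (DESeq2 adjusted p = 0.0481). Cd86 had 50 and 2 counts in KO and 2 and 1 in WT, and Cd40 28 and 8 in KO and 0 and 4 in WT, and both were under the count filter of edgeR, as was Cd83. The 4 costimulation genes that edgeR tested had a median log2 fold change of -0.20, with 0 called. Of the 4, 0 were higher in both KO libraries and 2 lower in both (18.1% and 19.1% of all genes tested). These 2 were Icosl, with 63.5 and 72.7 CPM in KO and 89.1 and 106 CPM in WT, and Cd274, with 3.65 and 4.93 CPM in KO and 8.85 and 10.03 CPM in WT.

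Markers of cells that carry class II molecules were read beside these values, and their part in the class II values was not tested. Of 17 dendritic cell markers 11 passed the count filter, and 1 of these was higher in both KO libraries (18.1% of all genes tested). By DESeq2 1 of the 17 rose (1.56% of its genes with an adjusted p). Genes under the filter included, 7 of the 17 were highest in KO replicate 1 (30.4% of the tested genes alone). The summed level of the 17 was 885 and 1095 CPM in KO and 1330 and 913 CPM in WT, most of these counts from Flt3, Tcf4, Cst3, Wdfy4 and Irf8. The sum therefore says little about the markers of low count. The riser was Naaa, an acid amidase gene, with 32.0 and 36.6 CPM in KO and 9.75 and 16.2 CPM in WT (DESeq2 adjusted p = 0.0274). Among the defining markers, Zbtb46 had 28 and 2 counts in KO and 0 and 2 in WT, and Cd209a 99 and 1 in KO and 0 and 1 in WT. Xcr1 had 5 and 3 counts in KO and 5 and 6 in WT. Ccr7 had 23 and 8 counts in KO and 8 and 0 in WT, and Siglech 12 and 2 in KO and 0 and 0 in WT. Ly6d had 0 and 5 counts in KO and 1 and 0 in WT. Batf3 had 9 and 2 counts in KO and 339 and 0 in WT, and Itgax 10.5 and 5.58 CPM in KO and 37.1 and 2.12 CPM in WT, both highest in WT replicate 1. Other markers ran the other way between the WT libraries: Clec10a had 16.4 and 5.93 CPM in KO and 1.55 and 22.1 CPM in WT, and Irf8 129 and 137 CPM in KO and 40.1 and 151 CPM in WT.

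B cell markers were low apart from Cd79b. Of 11 measured markers 4 passed the filter, and all 4 were higher in both KO libraries (18.1% of all genes tested). By edgeR and by DESeq2 0 passed. Genes under the filter included, 5 of the 11 were highest in KO replicate 1 (30.4% of the tested genes alone). The summed level of the 11 was 45.0 and 28.8 CPM in KO and 23.6 and 19.5 CPM in WT. Of this Cd79b made 33.8 and 24.0 CPM in KO and 22.6 and 16.9 CPM in WT. Fcer2a had 90 and 33 counts in KO and 0 and 7 in WT (DESeq2 adjusted p = 0.0672), and Cd22 had 56 and 20 in KO and 1 and 15 in WT (adjusted p = 0.676). Of the defining genes, Pax5 had 0 and 0 counts in KO and 1 and 0 in WT, and Blk had 0 in every library.

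Of 12 monocyte and macrophage markers 7 passed the filter. Of these 4 were higher in both KO libraries (18.1% of all genes tested) and 1 was lower in both (19.1%). By DESeq2 2 of the 12 rose (1.56% of its genes with an adjusted p). Genes under the filter included, 9 of the 12 were highest in KO replicate 1 (30.4% of the tested genes alone). The summed level of the 12 was 1813 and 1649 CPM in KO and 2209 and 1233 CPM in WT, most of these counts from Ly6c2. Vcam1, an adhesion molecule of marrow macrophages, had 136 and 87.8 CPM in KO and 9.60 and 21.6 CPM in WT (DESeq2 adjusted p = 1.82e-06), and Csf1r, the M-CSF receptor gene, 135 and 90.8 CPM in KO and 34.0 and 51.6 CPM in WT (DESeq2 adjusted p = 0.0133). The complement gene C1qb, typical of resident macrophages, had 67 and 1 counts in KO and 2 and 1 in WT. The marker lower in both KO libraries was Cd68, with 96.1 and 84.8 CPM in KO and 150 and 133 CPM in WT. Adgre1 overlapped between the genotypes, with 65.0 and 97.0 CPM in KO and 75.5 and 122 CPM in WT. T and NK cell markers summed to 3.77 and 3.99 CPM in KO and 1.20 and 2.07 CPM in WT, 0 of 10 were called by either test, and Cd8a, Cd8b1 and Ncr1 were at 0 throughout. Of those with the highest mean CPM, Il7r had 2.29 and 2.58 CPM in KO and 0.650 and 0.743 CPM in WT, and Klrb1c 0.433 and 0.881 CPM in KO and 0.250 and 0.849 CPM in WT. Erythroid and megakaryocyte markers summed to 4.14 and 22.4 CPM in KO and 29.8 and 113 CPM in WT, mostly counts of Itga2b, 0 of 10 were called, and Klf1 lay between 1.06 and 1.18 CPM in every library.

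Among the 5 genes whose pattern over the 4 libraries lay nearest to the mean pattern of the 10 class II genes were Kmo, Cachd1, Nrp1 and Stfa3. The measure was the Euclidean distance between mean-centred log2 values of CPM plus 0.5, and it ran from 0.15 for Kmo to 0.35 for Stfa3. The distance of the members from their own mean pattern was larger, from 1.14 for H2-DMb2 to 3.69 for Cd74. The members were not picked for nearness, while the 5 were, so their smaller distances follow from the choice. Kmo, which encodes a kynurenine hydroxylase, had 5.69 and 0.939 CPM in KO and 0.200 and 0.371 CPM in WT. Nrp1, the neuropilin receptor gene, had 90 and 16 counts in KO and 1 and 3 in WT. Stfa3, a stefin protease inhibitor gene, had 37.6 and 6.93 CPM in KO and 2.70 and 5.36 CPM in WT. In each of the 5 KO replicate 1 was the highest library and KO replicate 2 the next, as in the mean pattern by which they were chosen.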

How the data were processed

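The authors deposited a file of raw counts by gene symbol for each RNA-seq library, and these counts were used as they stand. Per the submitters' processing notes the tools include STAR 2.3.0 and HTSeq with build mm10, with no role stated; the sources used here give neither annotation nor strand setting. Closing entries that name no gene held 69.3% to 72.4% of all counts and were left out. Groups and replicate numbers come from the sample titles.

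In R 4.3.3, genes were kept by filterByExpr of edgeR 4.0.16, which left 12623, and scaled with TMM factors. The KO group was set against WT by the robust quasi-likelihood test of edgeR with Benjamini-Hochberg adjustment over all genes at 0.05, where the SE is the log2 fold change's size over the square root of F. Alternatives were voom (limma 3.58.1) and DESeq2 1.42.0, which ran on all 16651 genes with a count. Ratios of 2 libraries have exact binomial counting intervals.

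The members and the lists were chosen with earlier results of these data known. The text names the members, the DESeq2 calls of each list or else its 2 genes of highest mean CPM, and the 5 nearest patterns, predicted genes left out; some named items are not reported here. Overlapping genes, Rfx5, Ctss, Ifi30, Cd86, Cd40, Icosl, Cd274, H2-Eb2, H2-Ea-ps, Cd68, Adgre1 and the defining cell markers were named after their values were seen. The lists held 2 symbols of B cell and 1 of T cell genes that were not analysed here. Positions and promoters come from RefSeq, GRCm38.p6.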

Additional observations from a re-analysis of the deposited data

How the results depend on the processing

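Over all genes edgeR called 0, DESeq2 352 and voom 0, edgeR without the low-count filter 4, and with a library left out edgeR called 0 to 156. DESeq2 then called 162 (WT replicate 1 left out), 390 (WT replicate 2), 178 (KO replicate 1) and 384 (KO replicate 2). RLE scaling and library sizes alone also gave 0 in edgeR. Of the 10 class II genes edgeR called 0 in each of these fits, and DESeq2 called 4, or 1 to 5 with a library left out, which were alternatives added after seeing the data. The count of class II genes higher in the KO libraries, 5, ran from 5 to 7 with a library left out. With fewer libraries this criterion is easier to meet, so the count could hardly fall. The share of all genes that meet the looser criterion was not counted. Their median log2 fold change, 2.08, ran from 0.41 (without KO replicate 1) to 2.73 (without KO replicate 2). The replicate block in edgeR, for which the replicate numbers of the titles were used, called 11 genes and 0 class II genes and gave a median of 1.57. Samples of the same number deviated together weakly (correlation over genes 0.20), and nothing in the labels says that the numbers pair the samples.

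Ciita, Cd74, H2-Aa, H2-Eb1 and H2-DMb2 kept a positive log2 fold change in every fit, with lowest values of 3.72, 3.50, 2.70, 2.96 and 1.12, each without KO replicate 1. As their groups did not overlap, leaving out a library could hardly turn these signs, so the kept sign adds no support. The lowest adjusted p of edgeR or voom was 0.104 for Ciita among the fits of all libraries and 0.123 with a library left out. Signs turned for H2-DMb1 (0.0071 by DESeq2, 0.0093 with RLE scaling, 0.0074 without the filter, and -0.31 to 0.25 with a library left out, or to 0.26 by DESeq2, with 0.15 without WT replicate 2) and for H2-Oa (-0.018 with library sizes alone, and -0.78 to 1.19 with a library left out, with -0.62 and -0.77 by DESeq2 without WT replicate 1 and KO replicate 1). With a library left out they also turned for H2-Ob (-0.67 to 0.14, and 0.13 by DESeq2 without KO replicate 2) and H2-Ab1 (-0.52 to 3.40), and the cause was not tested. The low Ciita counts in WT limit the size of its ratio.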
